A study of Mus musculus with 166 samples.

Results

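The Mir23a cluster and the Mir23b cluster are paralogous groups of microRNA hairpins that each encode a miR-23, a miR-27 and a miR-24. They were followed here in the cerebellum of Huntington's disease knock-in mice. Members were taken by name: the 6 hairpins Mir23a, Mir27a and Mir24-2 of the first cluster and Mir23b, Mir27b and Mir24-1 of the second were looked up by transcript ID in GENCODE M21. Of these, 5 had a row with that ID among the 1626 rows of the deposited count table, and Mir24-1 was not analysed here. Whether Mir24-1 lies among the 398 rows without a GENCODE M21 entry was not tested. All 5 passed the filter on low counts that left 451 features.

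The 166 small RNA libraries came from C57BL/6 mice of 7 lines and 3 ages. Wild-type (WT) mice were littermates of the Q20 line, and the other mice were heterozygous for a knock-in Htt allele with about 20, 80, 92, 111, 140 or 175 CAG repeats (lines Q20, Q80, Q92, Q111, Q140 and Q175). Cerebella were taken at 2, 6 and 10 months, with 7 or 8 animals of both sexes in each of the 21 groups. WT and Q20 mice together served as the controls, and at 2 and 10 months the same control libraries were used for every line. Each CAG length is represented by 1 mouse line, so line and repeat length cannot be told apart, and the Q175 line was derived from the Q140 line. Library totals ran between 3094703 and 6188935 counts with a median of 4321048. After 9 libraries with low connectivity to the rest of their age were left out (8 at 2 months and 1 at 10 months), 157 remained, with 6 to 8 per line and age. At 6 months the 16 WT and Q175 libraries carried library series number 330 and the other 150 libraries another number. With this number in the model at 6 months, Q175 was in effect compared with WT, and Q80 to Q140 with Q20. The 14 tested hairpins of a neuronal list of 15 (the miR-124, miR-9, miR-128, miR-137, miR-218, miR-132, miR-212 and miR-138 genes) summed to between 61236 and 103431 CPM (counts with every library scaled to the same standard total) in the 157 libraries, against 198 to 420.5 CPM for the 5 tested of 6 muscle hairpins.

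Both clusters are made as long primary transcripts. Drosha cuts out each hairpin, Dicer releases a short duplex, and the guide strand sits in an Argonaute protein, where bases 2 to 8 (the seed) pair with messenger RNAs that are then repressed. The miR-23, miR-27 and miR-24 families are best known from blood vessels, where they take part in the growth of endothelial cells, from muscle and blood cell differentiation, and, for miR-27, from lipid metabolism.

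In the mouse genome (GRCm38) the Mir23a cluster spans 404 bases on chromosome 8, all on the plus strand. It holds Mir23a (ENSMUST00000083677, chr8:84208518-84208592), Mir27a (ENSMUST00000083510, chr8:84208672-84208758) and Mir24-2 (ENSMUST00000083607, chr8:84208815-84208921), and no protein-coding gene overlaps it in GENCODE M21. The Mir23b cluster spans 792 bases on the plus strand of chromosome 13. It holds Mir23b (ENSMUST00000083665, chr13:63300484-63300557), Mir27b (ENSMUST00000083541, chr13:63300712-63300784) and Mir24-1 (ENSMUST00000198479, chr13:63301208-63301275). It lies inside the gene 2010111I01Rik on the same strand and inside an intron of Fancc on the other strand.

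The mature 3p arms show how close the members are. They are given here from RefSeq (GRCm38.p6), 5′ to 3′, with the seed in capitals. The seed is UCACAUU for miR-23, UCACAGU for miR-27 and GGCUCAG for miR-24.
miR-23a-3p: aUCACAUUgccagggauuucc
miR-27a-3p: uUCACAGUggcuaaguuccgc
miR-27b-3p: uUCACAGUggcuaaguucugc
miR-24-3p: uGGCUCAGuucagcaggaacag
miR-128-3p: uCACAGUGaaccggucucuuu

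The arms miR-27a-3p and miR-27b-3p differ at a single base (C19U, counted from the 5′ end of miR-27a-3p). miR-24-3p is the same from both hairpins. Within the first 8 bases, miR-23a-3p differs from miR-27a-3p at A1U and U7G. miR-128-3p, an abundant neuronal microRNA from genes elsewhere in the genome, is shown because its first 8 bases are bases 2 to 9 of miR-27b-3p. The miR-23 arm of the second cluster is miR-23b-3p.

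The 5p arms, again with the seed in capitals, differ at more bases between the clusters.
miR-23a-5p: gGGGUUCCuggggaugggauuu
miR-23b-5p: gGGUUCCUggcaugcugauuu
miR-27a-5p: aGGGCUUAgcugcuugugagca
miR-27b-5p: aGAGCUUAgcugauuggugaac
miR-24-2-5p: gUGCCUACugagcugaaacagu
miR-24-1-5p: gUGCCUACugagcugauaucagu

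The counts are per hairpin, and the hairpins share long runs, so the pairs below are shown with the longest run common to both paralogs in capitals. The run is 20 bases for the miR-23 pair, 20 for the miR-27 pair and 28 for the miR-24 pair, in each case over most or all of the 3p arm.
Mir23a: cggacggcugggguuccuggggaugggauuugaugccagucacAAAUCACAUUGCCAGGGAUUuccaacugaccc
Mir23b: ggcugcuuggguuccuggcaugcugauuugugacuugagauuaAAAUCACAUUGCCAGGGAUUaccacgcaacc
Mir27a: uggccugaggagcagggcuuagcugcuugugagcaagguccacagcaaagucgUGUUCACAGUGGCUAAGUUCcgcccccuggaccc
Mir27b: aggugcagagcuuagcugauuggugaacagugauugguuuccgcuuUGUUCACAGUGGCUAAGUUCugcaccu
Mir24-2: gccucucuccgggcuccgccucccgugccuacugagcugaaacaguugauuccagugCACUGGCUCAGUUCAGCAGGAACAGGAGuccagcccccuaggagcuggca
Mir24-1: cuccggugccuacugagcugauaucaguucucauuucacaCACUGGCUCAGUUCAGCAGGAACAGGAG

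Reads from within such runs cannot be assigned to 1 hairpin. The deposited counts of the members were fractional in 99.4% of libraries for Mir27b and in 100% for each of the other 4. The values of Mir23a against Mir23b, of Mir27a against Mir27b, and of Mir24-2 (whose paralog has no value here) are therefore uncertain as estimates of 1 hairpin.

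Mir27b was the leading member. Per base of the hairpin length implied by the deposited tables it had 112 to 194 CPM per base in the 157 libraries, with a median of 150.1. The next was Mir23b with a median of 8.68 CPM per base, followed by Mir24-2 with 7.36, Mir27a with 3.40 and Mir23a with 3.09. Mir27b was above Mir23b and Mir24-2 was above Mir27a in all 157 libraries, whereas the neighbours Mir23b and Mir24-2 overlapped (Mir23b higher in 143 of 157) and so did Mir27a and Mir23a (Mir27a higher in 137 of 157). Without division by length, Mir23b and Mir24-2 had medians of 841.9 and 787.2 CPM (ranks 80 and 81). In WT and Q175 at 6 months Mir24-2 then had the higher mean (1098 and 1058 CPM, against 947 and 866 CPM for Mir23b). Mir27b took 1.47% of all counts and ranked 13 of 451 features by median CPM, against ranks between 80 and 132 for the others. The spread between animals was small, with a median coefficient of variation within a line and age of 4.62% for Mir23b, 5.03% for Mir27b, 5.19% for Mir24-2, 7.07% for Mir23a and 8.14% for Mir27a.

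**Figure D1:**
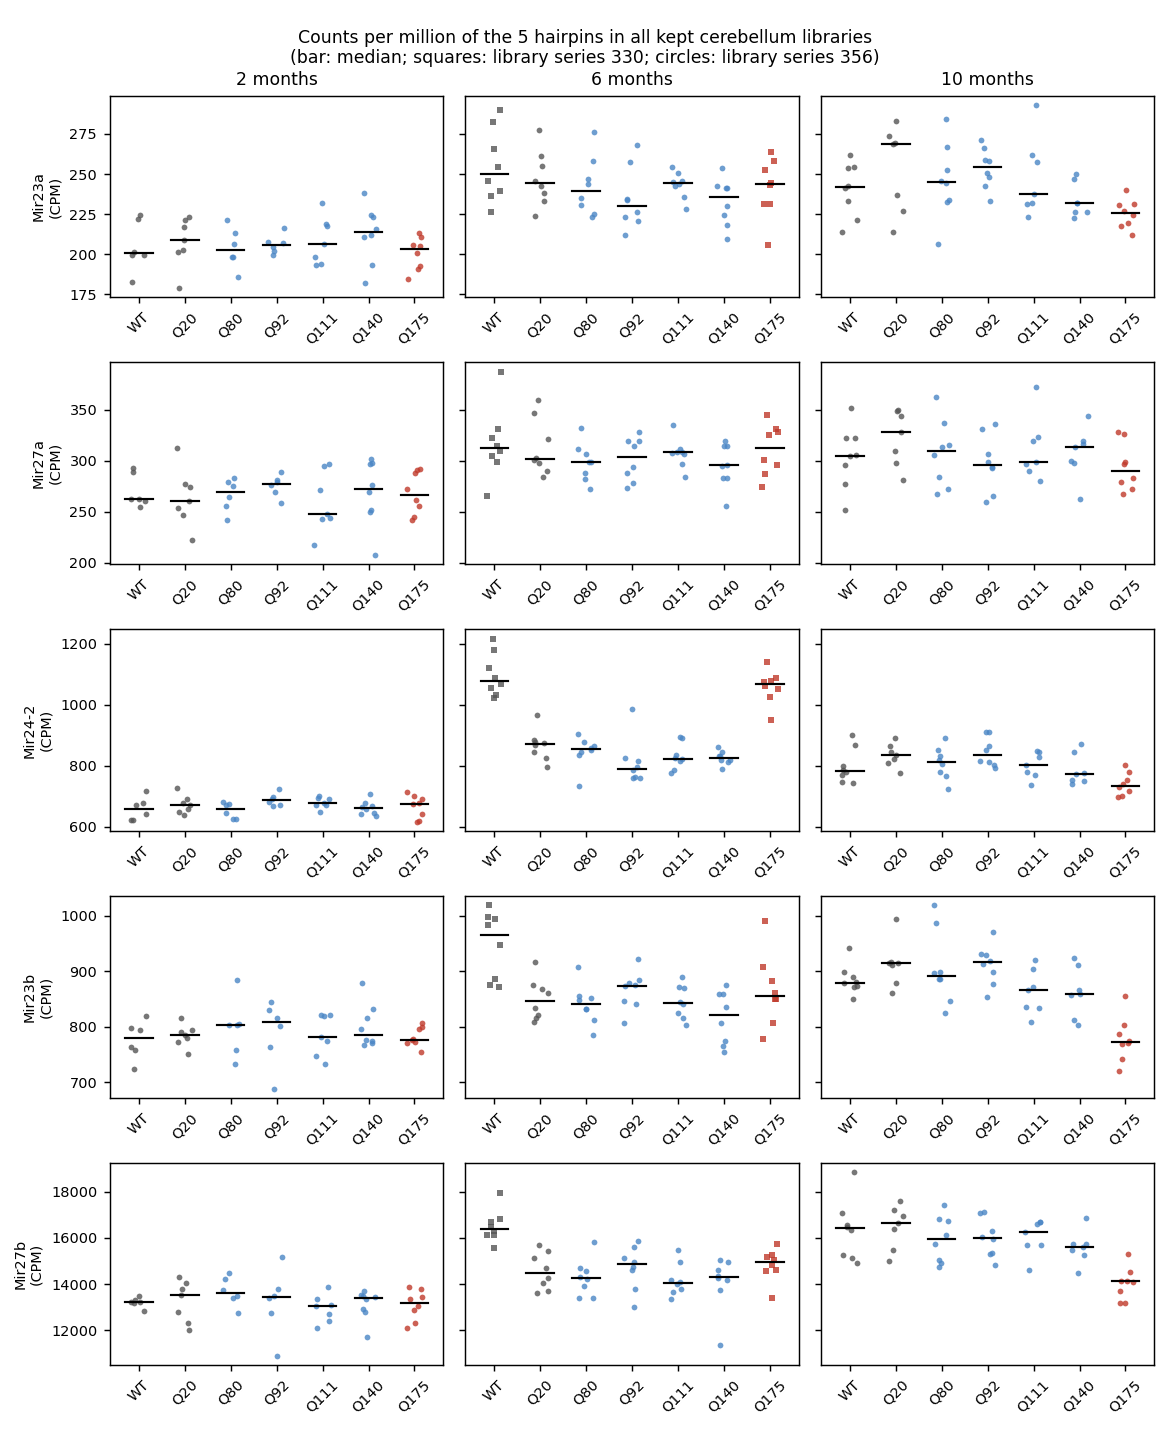
Level of each of the 5 hairpins (rows, CPM on axes that do not start at 0) by line (x axis, by CAG length) at 2, 6 and 10 months (columns) in 157 libraries, 1 point per animal, with the median as a bar, controls in grey and Q175 in red. At 10 months the Q175 animals sit low for Mir27b, Mir23b and Mir24-2, and at 6 months the squares of library series 330 (WT and Q175) sit above the circles for Mir24-2.

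The Q175 line at 10 months differed most from its controls among the line comparisons. Relative to controls, Mir27b fell by 13.5%, Mir23b fell by 12.3% and Mir24-2 fell by 8.21%, and these 3 of 5 members passed the test (edgeR quasi-likelihood, Benjamini-Hochberg FDR under 0.05), all of them lower. Over all features 25.1% were called in this comparison, 11.3% lower and 13.7% higher, and the median log2 fold change was -0.12 over the members and -0.04 over all 451 features.

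Mir27b had 13160 CPM at the lowest, 14112 at the median and 15313 at the highest in the 8 Q175 animals, against 14915, 16490 and 18843 CPM in the 15 control animals. All 8 Q175 values lay below the control median and 7 of 8 below the lowest control, so the groups overlapped through 1 Q175 animal. The log2 fold change was -0.21 ± 0.04 (SE, n = 8 and 15) with an edgeR adjusted p of 5.39e-06.

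Mir23b, its 5′ neighbour on the same strand, had 719.8, 772.8 and 856 CPM (lowest, median, highest) in Q175, against 849.9, 890.2 and 994 CPM in controls. Here too 7 of 8 Q175 animals were below the lowest control, and against the 7 Q20 animals alone the ranges did not overlap. The log2 fold change was -0.19 ± 0.03 (SE, n = 8 and 15, edgeR adjusted p = 4.467e-06).

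Mir24-2, the only miR-24 hairpin with a matched row, had 697 to 803 CPM in Q175 with a median of 734.9, against 742 to 900.2 CPM in controls with a median of 807.9. Of the 8 Q175 animals 5 were below every control. The log2 fold change was -0.12 ± 0.04 (SE, n = 8 and 15, edgeR adjusted p = 0.0065), and it no longer passed with WT alone as controls (-0.09, adjusted p = 0.13) or without the filter on low counts (-0.12, adjusted p = 0.0743).

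The other members of the Mir23a cluster did not pass. Mir23a had 212 to 240.1 CPM in Q175 with a median of 225.7, against 214 to 283 CPM in controls with a median of 242.8, and a log2 fold change of -0.11 ± 0.05 (SE, n = 8 and 15, edgeR adjusted p = 0.0828). All 8 Q175 values lay below the control median, but 6 of 15 controls lay below the highest Q175 animal. Leaving out the control library Q20 F1 or WT F1 brought Mir23a past the threshold (adjusted p = 0.0487 and 0.0457). Mir27a had 268 to 329 CPM in Q175, against 252 to 352 CPM in controls, with a log2 fold change of -0.07 (95% interval -0.19 to 0.04, adjusted p = 0.414). When the counts of each pair of paralogs were summed before the fit, the miR-23 sum fell by 0.17 and the miR-27 sum by 0.20 on the log2 scale (edgeR adjusted p = 2.36e-05 and 1.71e-05), which counts as 5 of 5 members. The sums consist mostly of Mir23b and Mir27b.

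At 6 months Q175 was set against WT within library series 330, since the series number entered the model as a covariate. Mir27b had 13391, 14943 and 15755 CPM (lowest, median, highest) in the 8 Q175 animals, against 15542, 16383 and 17932 CPM in the 8 WT animals. Of the Q175 animals 7 of 8 were below the lowest WT animal, while the 8 Q20 animals of the other series had 13606 to 15691 CPM and lay below the highest Q175 animal. The log2 fold change was -0.14 ± 0.04 (SE, edgeR adjusted p = 0.0163). Mir23b had 777, 855.8 and 990.6 CPM in Q175, against 872, 965 and 1019 CPM in WT, so that 5 of 8 Q175 animals were below every WT animal, and its log2 fold change was -0.12 ± 0.04 (SE, n = 8 each, edgeR adjusted p = 0.0208).

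These 2 of 5 members were called at 6 months, both lower, where 18.6% of all features were called and 6.87% were lower. The calls depended on single animals and on the series term. Mir23b did not pass without Q175 F3, Q175 M2, Q175 M4 or WT M1 (adjusted p between 0.0502 and 0.0672), Mir27b did not pass without Q175 M2 (adjusted p = 0.0544), and neither passed without the series term (-0.03 and -0.04, adjusted p = 0.623 and 0.501). Mir24-2 had 949 to 1139 CPM in Q175, against 1023 to 1216 CPM in WT, a log2 fold change of -0.04 (95% interval -0.13 to 0.05, adjusted p = 0.647). With a lane term it was -0.12 and passed (adjusted p = 0.0345), and without the series term its sign turned (0.13, adjusted p = 0.0733). The Q20 animals, in the other series, had 794 to 965 CPM of Mir24-2, so that all 8 WT animals lay above all 8 Q20 animals, and library series and line cannot be told apart in that difference. Mir23a and Mir27a differed by -0.07 and -0.02 (95% intervals -0.17 to 0.04 and -0.12 to 0.09).

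At 2 months no member passed in Q175 by edgeR (0 of 5, none with an unadjusted p under 0.05, 0 by DESeq2), and 0.222% of all features were called. Mir27b had 12076 to 13855 CPM with a median of 13202 in Q175, against 12013 to 14295 CPM with a median of 13245 in controls. The log2 fold changes were -0.02 for Mir27b (95% interval -0.10 to 0.06), -0.00 for Mir23b (-0.06 to 0.05) and -0.01 for Mir24-2 (-0.06 to 0.05), intervals that do not reach the 10-month estimates of Mir27b, Mir23b and Mir24-2. For Mir24-2 the interval at 10 months (-0.19 to -0.05) overlaps the one at 2 months.

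In the other lines no member was called at any single age (0 of 5 in each of the 12 comparisons of Q80, Q92, Q111 and Q140 by edgeR and by DESeq2). At 6 months, with the series number in the model, these lines were in effect set against the Q20 animals of their own series. Of all features 0% were called in these comparisons except for Q111 at 6 months (0.443%) and Q140 at 10 months (4.21%, of which 1.77% lower and 2.44% higher). The 20 log2 fold changes per age lay between -0.03 and 0.05 at 2 months, between -0.09 and 0.04 at 6 months and between -0.08 and 0.05 at 10 months, with SEs of 0.03 to 0.07. An unadjusted p under 0.05 occurred once, for Mir27b in Q140 at 10 months, a comparison in which 81 of 451 features had one. There Mir27b had 14493 to 16875 CPM with a median of 15604 in 7 Q140 animals, against a control median of 16490, and the log2 fold change was -0.08 ± 0.04 (SE, edgeR adjusted p = 0.265). All 5 members were lower in Q140 at 10 months, with log2 fold changes between -0.03 and -0.08, none of which passed. Over all features 51.9% had a negative log2 fold change in this comparison.

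**Figure D2:**
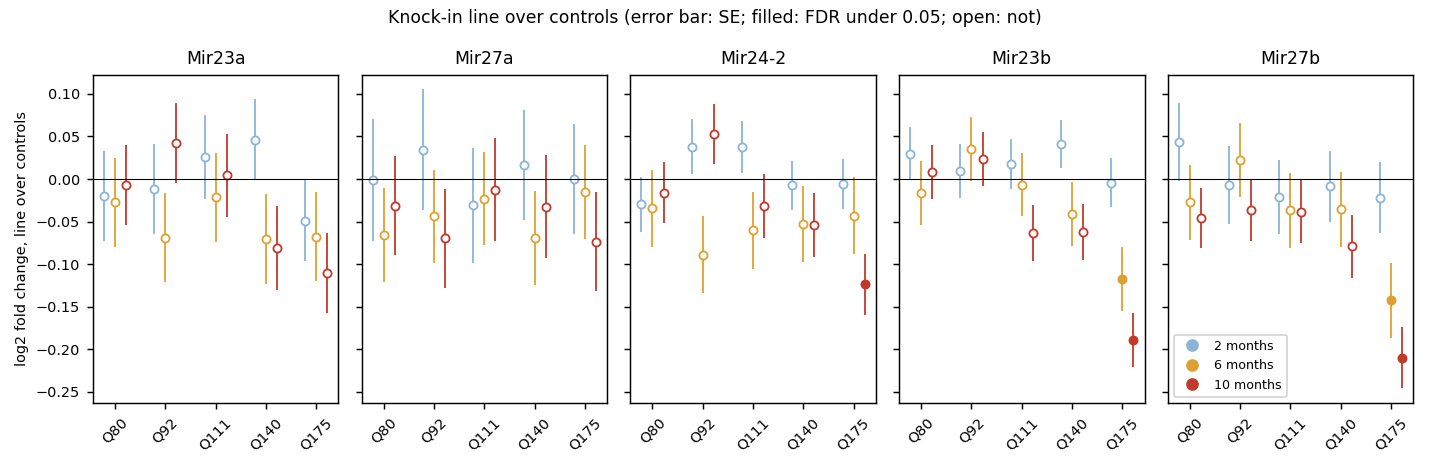
Log2 fold change of each hairpin (panels) in each line (x axis) over controls at 2, 6 and 10 months (colours), with the SE as error bar and filled points where the edgeR FDR was under 0.05. Controls were WT and Q20 at 2 and 10 months, and at 6 months WT for Q175 and Q20 for the other lines. The filled points are all in Q175: Mir27b and Mir23b at 6 and 10 months and Mir24-2 at 10 months, down to -0.21.

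Taken as a number, CAG length (with WT set to 7) was associated with 0, 2 and 3 of 5 members at 2, 6 and 10 months by edgeR, where 0.222%, 16.4% and 22.2% of all features were associated, 5.1% at 6 months and 9.09% at 10 months with a negative slope. For Mir27b the slopes at the 3 ages were -0.02 ± 0.02, -0.06 ± 0.02 and -0.10 ± 0.02 (log2 per 100 CAG, SE), with adjusted p of 0.909, 0.0223 and 0.0001437. Mir23b had slopes of 0.01 ± 0.02, -0.05 ± 0.02 and -0.09 ± 0.02 (adjusted p = 0.921, 0.0288 and 0.0003842). The slope of Mir24-2 at 10 months was -0.06 ± 0.02 (adjusted p = 0.0324) and did not pass with a lane term, with WT alone as controls, with all libraries kept or without the filter on low counts (adjusted p between 0.0551 and 0.195).

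These slopes rested on Q175. In a fit without Q175, added after seeing the data, 0 of 5 members were associated with CAG length at 6 or 10 months by edgeR, and none had an unadjusted p under 0.05. The slope of Mir27b at 10 months was then -0.05 ± 0.03 (adjusted p = 0.388) and that of Mir23b -0.04 ± 0.02 (adjusted p = 0.528). All 5 members had negative slopes at both ages, and the share of negative slopes over all features was not taken. In the same fits 0.222% and 0.443% of all features were associated. At 6 and 10 months combined it was again 0 of 5 members, none with an unadjusted p under 0.05, where 5.54% of all features were associated.

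When the statistics of 6 and 10 months were combined by Stouffer's method, 4 of 5 members were lower in Q175, where 31% of all features were called and 13.5% were lower. The mean log2 fold changes were -0.18 ± 0.03 for Mir27b, -0.15 ± 0.02 for Mir23b, -0.09 ± 0.04 for Mir23a and -0.08 ± 0.03 for Mir24-2 (SE, edgeR adjusted p = 9.659e-08, 1.208e-07, 0.0408 and 0.013), against -0.04 ± 0.04 for Mir27a (adjusted p = 0.476). Without the series term Mir24-2 had a mean of 0.00 (0.0037 before rounding, adjusted p = 0.549) and Mir23a did not pass (adjusted p = 0.0769). The call of Mir23a held under 5 of 9 other settings. Among these was the setting with paralog counts summed, where the value is that of Mir23a and Mir23b together and mostly of Mir23b. The call of Mir23a was also lost without the filter on low counts, with RPKM and with the replicate block (adjusted p = 0.095, 0.0558 and 0.0543). Association with CAG length gave the same 4 members, all negative, where 26.6% of all features were called. In Q140 the combined fit called 0 of 5 members by edgeR (7.54% of all features) and 0 by DESeq2, with 3 members at an unadjusted p under 0.05. Of all 451 features 79 had an unadjusted p under 0.05 in that fit.

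With age the clusters rose. At 10 months all 5 members were higher than at 2 months in the 2 control lines, where 47.2% of all features were called and 25.7% were higher. The median log2 fold change was 0.283 over the members and -0.01 over all features.

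Mir27b had 14915, 16490 and 18843 CPM (lowest, median, highest) in the 15 control animals of 10 months, against 12013, 13245 and 14295 CPM in the 13 of 2 months. The ranges did not overlap. The log2 fold change was 0.34 ± 0.03 (SE, edgeR adjusted p = 2.293e-09).

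Mir24-2 likewise did not overlap, with 742 to 900.2 CPM at 10 months, against 623 to 726 CPM at 2 months, and rose by 0.32 ± 0.03 on the log2 scale (SE, n = 15 and 13, edgeR adjusted p = 3.873e-09). Mir23b had 849.9 to 994 CPM at 10 months, against 724 to 819 CPM at 2 months, again without overlap (0.23 ± 0.02, adjusted p = 4.822e-09). The 2 less abundant hairpins rose by similar amounts with overlapping ranges. Mir23a had 12 of 15 animals of 10 months above the highest of 2 months (0.28 ± 0.05, adjusted p = 8.415e-06), and Mir27a had 7 of 15 (0.25 ± 0.05, adjusted p = 0.0001466).

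With all 7 lines in the fit, all 5 members were again higher at 10 than at 2 months (70.1% of all features called, 35.5% higher), with log2 fold changes between 0.16 for Mir23b and 0.28 for Mir24-2 and SEs of 0.02 to 0.03. Within single lines, 4 members had a higher mean at 10 than at 2 months in 7 of 7 lines, and Mir23b in 6 of 7. The exception was Mir23b in Q175, with 719.8 to 856 CPM and a median of 772.8 at 10 months, against 755 to 806 CPM and a median of 777 at 2 months.

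The 5 lines with all 3 ages in the larger library series (Q20 to Q140) were also compared between neighbouring ages. Of all features 63.4% were called between 2 and 6 months and 42.1% between 6 and 10 months. All 5 members were higher at 6 than at 2 months. Mir24-2 had 735, 830.4 and 987 CPM (lowest, median, highest) in 40 animals of 6 months, against 624, 672 and 726 CPM in 34 animals of 2 months, without overlap (0.31 ± 0.02, SE, edgeR adjusted p = 2.343e-30). Mir23a rose by 0.20 ± 0.02 and Mir27a by 0.17 ± 0.03, while Mir27b and Mir23b of the other cluster rose by 0.11 ± 0.02 and 0.08 ± 0.02. With a term for the lane number, added after seeing the data, 4 of 5 members passed (59% of all features called). Mir27b then had 0.05 ± 0.03 and did not pass (edgeR adjusted p = 0.0955), Mir23b had 0.04 ± 0.02 (adjusted p = 0.0499), and Mir24-2 had 0.36 ± 0.02. Some library names of 2 and 6 months carry the same lane number and the same LB number. A lane number therefore need not be the same sequencing run at both ages, and this fit cannot separate age from run.

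Between 6 and 10 months Mir27b and Mir23b rose further. Mir27b had 14493, 15968 and 17616 CPM in 37 animals of 10 months, against 11364, 14280 and 15868 CPM in 40 animals of 6 months (0.15 ± 0.02, adjusted p = 9.731e-10), and Mir23b rose by 0.07 ± 0.02 (adjusted p = 6.769e-05). Mir23a and Mir27a differed by 0.03 ± 0.02 and 0.02 ± 0.03 and did not pass. Mir24-2 was called lower (-0.04 ± 0.02, adjusted p = 0.046), a call that none of the 6 alternatives kept (adjusted p between 0.0993 and 0.715, all with a negative sign). In the larger series the library names give lanes 1 and 2 for 2 months, 1, 2 and 8 for 6 months and 4, 5 and 6 for 10 months. No lane number is shared by the libraries of 10 months with either earlier age, so age and lane cannot be told apart there.

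**Figure D3:**
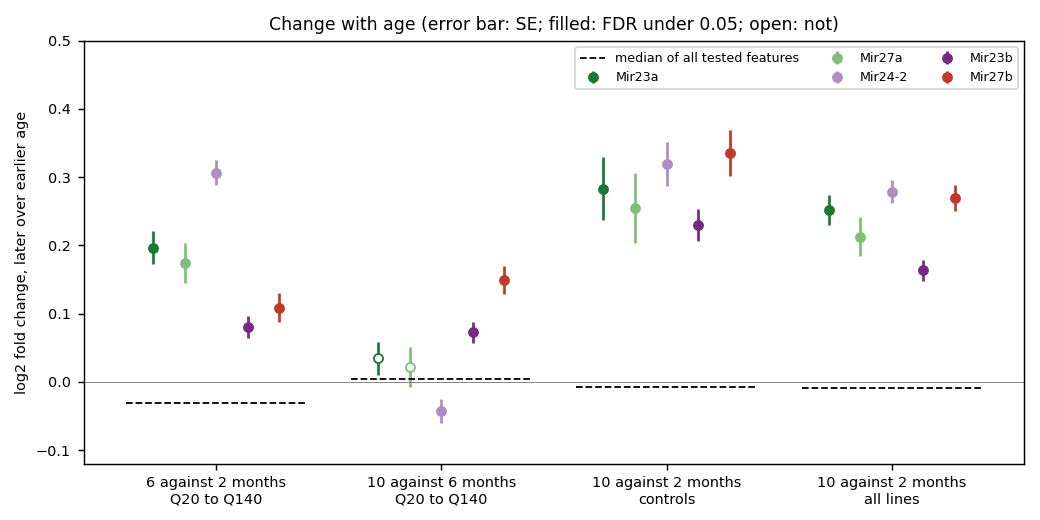
Log2 fold change of the later over the earlier age (y axis, SE as error bar) of the 5 hairpins in 4 comparisons (x axis), with the median of 451 features as a dashed line and filled points where the edgeR FDR was under 0.05. All 5 hairpins lie above the dashed line except Mir24-2 between 6 and 10 months at -0.04.

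Whether the slope on CAG length differed between ages was tested with an interaction term. The slope on CAG length was lower at 10 than at 2 months for Mir23b (difference -0.10 ± 0.03 log2 per 100 CAG, SE, edgeR adjusted p = 0.0084), 1 of 5 members, where 11.1% of all features were called and 3.99% were lower. Mir27b had a difference of -0.08 ± 0.03 that did not pass by edgeR (adjusted p = 0.0815). The other 3 differences were also negative and did not pass. The DESeq2 test called 2 members and 54 of all features, against 50 by edgeR.

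The summed counts of Mir23a, Mir27a and Mir24-2 were set against those of Mir23b and Mir27b within each library, a ratio that needs no scaling. No row matched Mir24-1, so the second sum lacks the miR-24 hairpin of its cluster, while Mir24-2 has the most counts in the first sum. The ratio is therefore one of these hairpins and not of the whole clusters. The first sum amounted to 8.04% to 9.41% of the second in the 8 Q175 animals of 10 months with a median of 8.46%, against 6.68% to 9.03% with a median of 8.0% in the 15 controls. All 8 Q175 animals were above the control median, but the groups overlapped widely. The mean log2 ratio differed by 0.10 ± 0.04 (SE, two-sided exact permutation test p = 0.0394, 0.0788 after adjustment over the 4 comparisons).

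At 6 months the ratio was 9.36% to 11.2% in Q175 with a median of 10.3%, against 8.76% to 10.6% with a median of 9.41% in WT, a log2 difference of 0.10 ± 0.04 (exact permutation p = 0.0343, adjusted 0.0788). At 2 months it was 8.26% at the median in Q175 and 8.07% in controls (exact permutation p = 0.735). Between the control animals of 10 and of 2 months the difference was -0.03 ± 0.03 (permutation p = 0.343, adjusted 0.457). Taking instead the mean of the paralog log2 ratios Mir23a over Mir23b and Mir27a over Mir27b, which leaves out Mir24-2, gave Q175 differences of 0.11 ± 0.03 at 10 months and 0.09 ± 0.03 at 6 months that passed (exact permutation, adjusted p = 0.0122 and 0.0131).

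**Figure D4:**
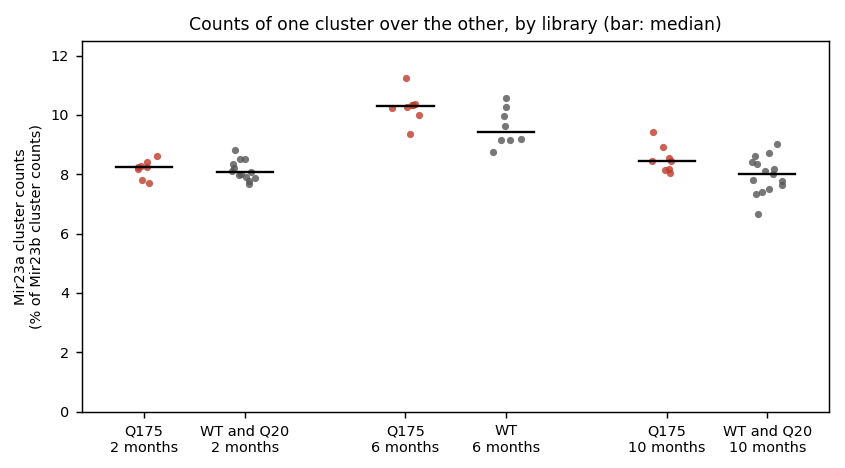
Summed counts of Mir23a, Mir27a and Mir24-2 as a percentage of the summed counts of Mir23b and Mir27b (y axis), 1 point per animal with the median as a bar, in Q175 (red) and controls (grey) at 2, 6 and 10 months. The Q175 median lies above the control median at 6 months (10.3% and 9.41%) and at 10 months (8.46% and 8.0%), and the animals overlap. No row matched Mir24-1, which is not in the second sum.

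Within lines and ages the members did not vary as 2 units. Over the 157 libraries, with each library centred on its group, Mir27a followed its paralog Mir27b (Spearman rho 0.59 of log2 CPM, the highest of 450 features for each of the 2). For Mir23a and Mir23b rho was 0.36, where Mir23b ranked 21 of 450 for Mir23a and Mir23a ranked 5 for Mir23b. Among pairs from the same cluster rho was 0.06 for Mir23b and Mir27b and lay between 0.20 and 0.23 for the 3 pairs of the Mir23a cluster. Mir24-2 and Mir23b, of different clusters and not paralogs, had 0.29. The paralogs share reads from their common runs, and all values of a library share its depth and scaling, so these are descriptions only.

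**Figure D5:**
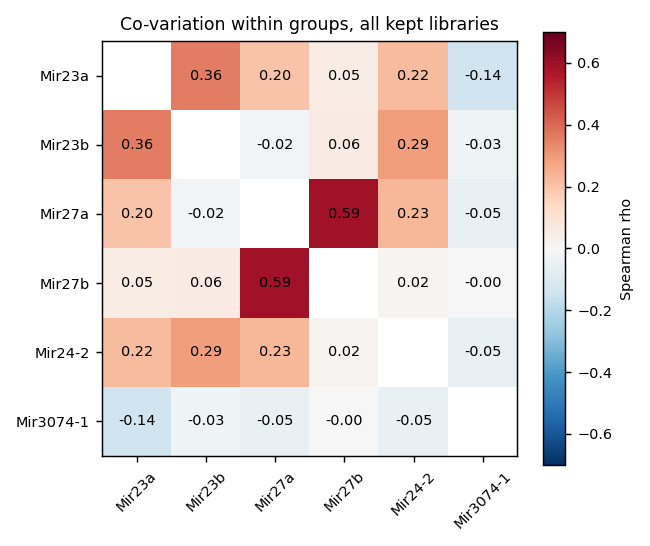
Spearman rho of log2 CPM, centred on the mean of each line and age, between the 5 hairpins and Mir3074-1 over 157 libraries (rows and columns list the hairpins, colour and numbers give rho). The paralog pairs Mir27a and Mir27b (0.59) and Mir23a and Mir23b (0.36) have the highest values, and Mir3074-1 lies between -0.14 and 0.00 with every member.

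Outside the clusters, the features most like Mir27b by the same measure were Mir181b-1 (0.53), Mir151 (0.53) and Mir1928 (0.43). For Mir27a they were the vascular Mir126a (0.49) and Mir143 (0.48) and the neuronal Mir124a-1 (0.38). Mir23a was most like Gm22650 (0.56), Mir199a-1 (0.55) and Mir34b (0.52), Mir24-2 like Mir206 (0.45), Mir7-1 (0.43) and Mir154 (0.40), and Mir23b like Gm24083 (0.43), Mir186 (0.42) and Mir361 (0.36).

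The strand opposite Mir24-1 carries the hairpin Mir3074-1 (ENSMUST00000175000, chr13:63301199-63301283). Its 5p arm is shown because 20 of its bases are the reverse complement of miR-24-3p.
miR-3074-5p: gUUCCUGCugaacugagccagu

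Mir3074-1 is no member of the clusters and is given for its position over Mir24-1. By counts it had a median of 0.128 of the level of Mir24-2 in the 150 libraries of the larger series and of 0.120 in the 16 of series 330. By the deposited RPKM values, which are scaled for length and depth, the ratio was 0.807 to 0.872 in the larger series and 0.0929 to 0.134 in series 330, without overlap, so for this hairpin the RPKM of the larger series do not follow from the deposited counts. The ratios within the 2 paralog pairs moved less. Mir27a over Mir27b had a median of 0.0201 by counts and 0.0282 by RPKM in the larger series, against 0.0203 by counts and 0.0226 by RPKM in series 330. Mir3074-1 did not pass in Q175 at 10 months (-0.07 ± 0.06, edgeR adjusted p = 0.479), and between 2 and 10 months in controls it rose by 0.39 ± 0.06 (adjusted p = 2.021e-06).

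The genes of miR-128, whose seed overlaps that of miR-27, were Mir128-1 and Mir128-2. In Q175 at 6 months both rose (0.15 ± 0.04 and 0.11 ± 0.04, edgeR adjusted p = 0.0039 and 0.0383), and at 10 months Mir128-2 rose by 0.12 ± 0.04 (adjusted p = 0.016) while the value of Mir128-1 was 0.09 ± 0.03 (adjusted p = 0.068). In the comparison of ages in controls, Mir128-1 fell by 1.13 and Mir128-2 fell by 0.51 on the log2 scale at 10 against 2 months (adjusted p = 4.725e-17 and 7.527e-13).

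Markers of other cell types moved in the same comparisons. In Q175 at 10 months 2 of 3 tested oligodendrocyte hairpins fell, Mir338 by 0.24 and Mir219a-2 by 0.30 on the log2 scale, and the summed level of the list was 3502 to 4296 CPM in Q175, against 3960.0 to 5321 CPM in controls. Of 5 tested microglial and immune hairpins Mir21a fell by 0.19 and Mir155 rose by 0.51. Mir142b, Mir223 and Mir146b were at 0.12, 0.02 and -0.09 and did not pass (edgeR adjusted p = 0.17, 0.955 and 0.626). The immune list summed to 2222 to 2567 CPM in Q175, against 2449 to 3074 CPM in controls. Of the 3 tested vascular hairpins none passed by edgeR (Mir145a at -0.14, Mir143 at -0.13 and Mir126a at 0.01, adjusted p = 0.0689, 0.241 and 0.848), and the list summed to 13270 to 18281 CPM in Q175, against 14439 to 19357 CPM in controls. Of 5 tested muscle hairpins 1 fell at 10 months and 1 at 6 months, and the list summed to 204 to 302 CPM in Q175 at 10 months, against 214 to 405 CPM in controls, with medians of 229.9 and 308.6 CPM. At 6 months Mir143, Mir219a-2 and Mir21a fell by 0.29, 0.24 and 0.17, 1 each of the 3 vascular, 3 oligodendrocyte and 5 immune hairpins tested. The other 2 vascular hairpins did not pass at 6 months (Mir145a at -0.13, edgeR adjusted p = 0.18, and Mir126a at 0.003). The medians of the vascular sum at 6 months were 14764 CPM in Q175 and 17184 CPM in WT. None of the tested hairpins of these lists was at 0 throughout a group. Their part in the differences of the clusters was not tested. In whole cerebellum, fewer cells of a type and less RNA per cell cannot be told apart.

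With age the vascular Mir126a and Mir143 rose in controls by 0.33 and 0.21, Mir338 and Mir219a-2 by 0.43 and 0.24, and Mir21a, Mir142b and Mir155 by 0.21, 0.52 and 0.72 (log2, 10 against 2 months). The other vascular hairpin Mir145a was at -0.11 (adjusted p = 0.0711), the immune Mir146b and Mir223 were at -0.09 and -0.07, and the oligodendrocyte Mir219a-1 was at -0.01, none of which passed in controls. With all lines in the fit Mir145a and Mir146b fell by 0.15 and by 0.21. Of 5 muscle hairpins 1 rose and 1 fell in controls. Their part in the rise of the clusters was not tested.

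Between the control lines, Q20 against WT called 0 of 5 members by edgeR and 0 by DESeq2 at 2 and at 10 months (0% of all features at both ages), with no unadjusted p under 0.05 and log2 fold changes between -0.06 and 0.09. Between female and male animals of all lines and ages 0 of 5 members passed by edgeR and 0 by DESeq2 (6.87% of all features called). Mir23b was 0.02 ± 0.01 higher in females on the log2 scale (adjusted p = 0.272), the only member with an unadjusted p under 0.05. Of all 451 features 71 had one.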

How the data were processed

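Per the study's methods and the labels, total RNA of flash-frozen cerebellum was size-enriched and sequenced as strand-specific single-end reads of 36 bases (base calls by CASAVA 1.8.2 per the submitters' processing notes). The authors clipped the reads, aligned them to mm10 with STAR and counted them with HTSeq; versions are not given in the sources used here. The deposited values are estimated counts (expected counts) made by the authors per Ensembl microRNA transcript, mostly fractional, and the step that divided shared reads is not given in the sources used here. They were rounded to whole numbers. The deposited RPKM values were used only as an alternative; in the larger library series they do not follow from the deposited counts and the hairpin lengths.

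Transcript IDs were matched to GENCODE M21 (1228 of 1626 rows matched). Within each age, libraries whose network connectivity had a Z score (Z.k) under -5 were left out (9 of 166), and filterByExpr kept 451 features. Fits used edgeR 4.0.16 quasi-likelihood with TMM in R 4.3.3, per age, with WT and Q20 as 1 control level, sex as covariate and library series at 6 months. The Benjamini-Hochberg FDR threshold was 0.05 over all features. The SE is the size of the log2 fold change divided by the square root of the F statistic. Combined values are means of the log2 fold changes at 6 and 10 months, with p from Stouffer's sum. Alternatives used DESeq2 1.42.0, limma 3.58.1 on log2(RPKM + 1), other size factors, filters, controls and covariates. CPM were scaled by TMM over the 157 libraries, and per-base levels use the lengths 75, 87, 107, 97 and 97 implied by the deposited counts and RPKM of series 330 for Mir23a, Mir27a, Mir24-2, Mir23b and Mir27b, which for Mir23b and Mir27b are longer than in GENCODE M21 (74 and 73). Intervals are 95% normal intervals of the log2 fold change. The fits were tested on simulated data. Values rest on 6 to 8 animals per group and 3094703 to 6188935 counts per library.

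The members were named in every comparison, of the other lists those called where 5 or fewer (muscle hairpins by counts), and for likeness the 3 features with the highest rho. The members and lists were chosen with earlier results of these data known. RefSeq mature or hairpin sequences were used for the arms shown.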

Additional observations from a re-analysis of the deposited data

Results flagged for a closer look

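Of 105 sets of values (5 hairpins in 21 groups), 4 held an animal far from the others of its group by Dixon's criterion, which chance gives in about 1 set of 20. Mir24-2 was at 735 CPM in Q80 F1 at 6 months, the lowest of 8, with the next at 836.02 and the group median at 854.8. Mir24-2 was at 987 CPM in Q92 M3 at 6 months, the highest of 8, against a next value of 824 and a median of 790.4. Mir27b was at 11726 CPM in Q140 F4 at 2 months and at 11364 CPM in Q140 F2 at 6 months, the lowest of 8 in both groups, where the medians were 13398 and 14302.

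The slope of Mir23b on CAG length differed between ages in a test of the interaction, by -0.10 log2 per 100 CAG at 10 against 2 months.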

How the results depend on the processing

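Counts of members called at FDR under 0.05 changed by more than 1.5 times as follows. Without the series term at 6 months, 0 of 5 members were called in Q175 and 0 with CAG length, 2 in Q80, 1 in Q92, 2 in Q111 and 3 in Q140, and at 6 and 10 months combined 2 in Q175, 2 in Q80, 1 in Q111 and 3 in Q140, and the sign of Mir24-2 in the combined Q175 comparison turned to 0.0037 (adjusted p = 0.549). With paralog counts summed, 4 members were called in Q175 and with CAG length at 6 months and 5 in both at 10 months. In that setting each sum was counted for both of its paralogs, so these counts are no separate result on Mir23a or Mir27a. RPKM with limma called 1 member in Q140 combined, and DESeq2 called 2 for the change of slope with age. Without Q175, CAG length called 0 members at 6 months, at 10 months and combined, and 1, 2 and 25 of all features. The paralog mean ratio gave a log2 difference of 0.0901 at 6 months and 0.111 at 10 months in Q175, past the threshold. The causes were not tested. Over all features, the fits without the series term called 43, 71, 42, 83 and 174 features at 6 months in Q80, Q92, Q111, Q140 and Q175 (0, 0, 2, 0 and 84 with it) and 44 with CAG length (74 with it), and combined 41, 1, 15 and 53 in Q80, Q92, Q111 and Q140 (0, 0, 0 and 34 with it). Without a filter on low counts Q175 at 6 months called 52 features. Q140 at 10 months called 19 features, and between 1 (WT alone as controls) and 29 (DESeq2) under other settings, with no member among them.

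Leaving out 1 library at a time gave 0 to 2 members in Q175 at 6 months, 3 to 4 at 10 months and 0 at 2 months, where 67 to 83, 102 to 113 and 0 to 1 of all 451 features were called. The log2 fold change of Mir27b at 10 months then lay between -0.22 and -0.19 and that of Mir23b between -0.21 and -0.17, and both passed under each of 10 other settings too. In the setting with paralog counts summed, the value was that of the sum.

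With the replicate block (the animal number within sex), 3 members were called in Q175 and 2 with CAG length at 10 months, 2 and 2 at 6 months and 3 and 4 combined. Over all features the blocked fits called 112 and 100, 80 and 73, and 139 and 119. Mir24-2 was then lost for CAG length at 10 months (adjusted p = 0.0607) and Mir23a for Q175 combined (adjusted p = 0.0543). Same-numbered animals had mean correlations of 0.016, -0.013 and 0.031 at 2, 6 and 10 months, which gave no sign that the numbers pair the animals but cannot exclude it. For the age comparisons a lane term was run only between 2 and 6 months, chosen after seeing the data, since no lane number is shared with 10 months in the larger series. Between 2 and 6 months too it cannot separate age from sequencing run.

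Mir23a and Mir27a, with fewer counts and a larger spread, had wider intervals than Mir27b and Mir23b at 10 months.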
